A study of Mus musculus with 71 samples.

Results

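Oxidative phosphorylation is carried out by 5 protein complexes of the inner mitochondrial membrane. Complexes I (NADH dehydrogenase), III (cytochrome bc1) and IV (cytochrome c oxidase) pass electrons to oxygen and pump protons, complex II (succinate dehydrogenase) feeds in electrons from succinate, and complex V (ATP synthase) uses the proton gradient to make ATP. Most subunits are encoded in the nucleus and imported, a small set is encoded by mitochondrial DNA, and complex II alone has no mitochondrially encoded subunit. Mature red cells have no mitochondria, whereas reticulocytes, the young red cells released from marrow, still carry mitochondria and RNA while they clear both. Whole blood holds RNA of reticulocytes, platelets and white cells together.

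Subunit genes were taken by symbol: the Nduf a, b, c, s and v series, the 4 Sdh genes, and the Uqcr, Atp5 and Cox (numbers 4 to 8) genes of the deposited normalized table, plus the protein-coding mitochondrial genes of the count table. This gave 94 genes, of which 81 were nuclear among the 10508 genes of the normalized table and 13 were mitochondrial among the 55416 rows of the count table. The nuclear genes fell into complex I (36 genes), complex II (4), complex III (8), complex IV (16) and complex V (17). The mitochondrial genes fell into complex I (7), complex III (1), complex IV (3) and complex V (2). Ndufa4 was placed in complex IV, of which its product is a subunit, and the complex IV genes include the pseudogene Cox5b-ps, which shares sequence with Cox5b and whose reads are therefore uncertain. Symbols are printed as in the files, so that Atp5b, Atp5h and Atp5l stand for the genes now called Atp5f1b, Atp5pd and Atp5mg. All 94 genes passed the filter on low counts.

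The samples were whole blood of female Balb/c AnNRj mice, 6 weeks old at inclusion, taken at the end of a model of systemic sclerosis (SSc). Control mice (CTRL, 11 mice with data) received PBS, and the HOCl group (12 mice) received intradermal hypochlorous acid on 5 days per week for 6 weeks. Groups of 12 mice each received HOCl together with D11, E07, D06 or BPR21. D11 and E07 are monoclonal antibodies (mAb) against galectin-3 in a human IgG1 format, given subcutaneously; D06 and BPR21 are printed as labelled. The groups were kept in separate cages, so cage and group cannot be told apart. The control group was read from the sample titles, because another label field carries HOCL for the control mice too.

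Libraries were poly A selected and globin depleted, and held between 11932855 and 15948972 counted reads. Normalized values were on a variance-stabilized (vst) scale, which approaches log2 for well-covered genes, and were present for 70 of the 71 mice, without HOCl mouse 8. The blood carried markers of its cell types. The 15 listed erythroid marker genes, of which 14 are in the normalized table, took the largest share of the marker lists, between 2.79% and 14.04% of the reads of a mouse. One control, CTRL mouse 12, had the highest erythroid score and the lowest size factor of the controls, and the highest control value of Atp5b, Atp5h, Atp5l, Ndufa1, Cox6b2 and Cox6a1.

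The mitochondrial genes need their sequence beside their values, because part of the mitochondrial genome is present again in the nucleus. In the GRCm39 assembly, a stretch of 4654 aligned bases at chr1:24650616-24655269 (minus strand) was 99.936% identical to chrM:6390-11042, with 2 mismatches and 1 gap base. It runs from the end of mt-Co1 through mt-Co2, mt-Atp8, mt-Atp6, mt-Co3, mt-Nd3 and mt-Nd4l into mt-Nd4. Within whole subunit genes other than mt-Co1 the single difference was T9461C in mt-Nd3, with the mitochondrial base first and positions counted from 1 on chrM. The pair below shows this base in capitals, and no other base of the 60 differs.
chrM:9431-9490 (plus strand): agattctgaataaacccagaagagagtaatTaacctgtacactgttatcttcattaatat
chr1:24652169-24652228 (minus strand): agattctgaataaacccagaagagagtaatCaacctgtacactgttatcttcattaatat

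The first 90 bases of mt-Co2, the cytochrome c oxidase subunit that receives electrons from cytochrome c, are shown because they are the same in both places. They are in lower case throughout, since no base differs.
mt-Co2, chrM:7013-7102 (plus strand): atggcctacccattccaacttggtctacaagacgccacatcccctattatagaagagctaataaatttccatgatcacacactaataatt
copy, chr1:24654557-24654646 (minus strand): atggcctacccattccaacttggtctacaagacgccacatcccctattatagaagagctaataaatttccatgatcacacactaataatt

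Cut into windows of 150 bases, the length of a read, 100% of the windows of mt-Co2, mt-Atp8, mt-Atp6, mt-Co3 and mt-Nd4l had an exact match in the nuclear genome. The share was 98.5% for mt-Nd3, 59.2% for mt-Nd4 and 23.6% for mt-Co1, and 0% for mt-Nd1, mt-Nd2, mt-Nd5, mt-Nd6 and mt-Cytb. Levels per gene length fell along the same split. Over the 71 mice, median levels as RPKM (reads scaled to gene length and library total) were 6540 for mt-Co1, 3530 for mt-Cytb, 2360 for mt-Nd1, 1270 for mt-Nd2, 976 for mt-Nd4 and 691 for mt-Nd5. They were 44.4 for mt-Co2, 42.6 for mt-Co3, 28.3 for mt-Atp6, 9.01 for mt-Atp8, 6.35 for mt-Nd3 and 3.77 for mt-Nd4l, that is, lower for every gene with an exact copy of nearly its whole length. The exception among genes without an exact match was mt-Nd6, the only subunit encoded on the light strand, at 7.3. There were 2 further, less similar nuclear copies. One at chr2:22477300-22480546 (97.362% identical over 3260 aligned bases) covered chrM:4441-7699, from within mt-Nd2 through mt-Co1 and mt-Co2. The other at chr4:79920567-79923441 (93.009% over 2875) covered chrM:12488-15359, which holds all of mt-Nd6 and mt-Cytb and part of mt-Nd5. How reads that match both places were counted is not given in the sources used here, and the part of the copy in these levels was not tested.

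**Figure D1:**
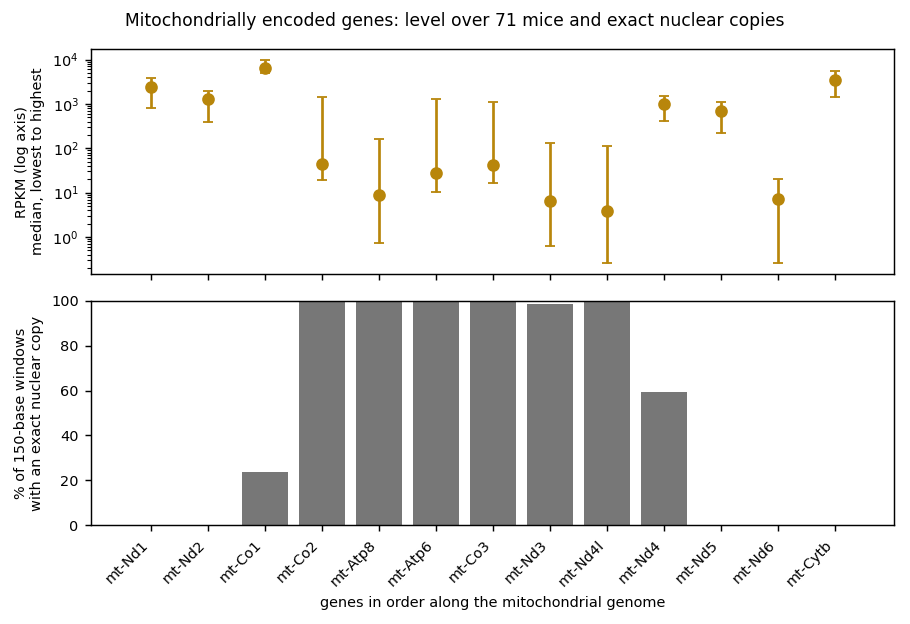
Levels of the 13 mitochondrial genes (upper panel, RPKM on a log axis, point at the median of 71 mice and line from the lowest to the highest mouse) and the percentage of 150-base windows with an exact nuclear match (lower panel, bars). Genes with bars at or near 100% lie at medians of 44.4 RPKM or less, and mt-Nd6 is low without an exact match.

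Among nuclear subunits, levels per length also differed within complexes. Length here is that of all annotated exons of a gene together, so the ranks and medians below depend on the annotation. It was 9416 bases for Cox6c, whose main transcript has 503, and 892 bases for Cox8a, whose main transcript has 564. Ranks by transcript length were not computed. Median RPKM over the genes of a complex was 8.97 for complex I, 8.98 for complex II, 20.9 for complex III, 23.8 for complex IV and 26.9 for complex V. On this measure the highest single genes were Cox8a (275 RPKM) and Cox6a1 (210), both ubiquitous forms of small complex IV subunits, Ndufa1 (227), an X-linked accessory subunit of complex I, and Atp5b (172), the catalytic beta subunit of ATP synthase. Where complex IV has tissue forms, the widespread form was the abundant one: Cox6a1 against 0.0 for the heart and muscle form Cox6a2, and Cox7a2 (17.1) against 0.347 for the heart and muscle form Cox7a1. Cox6b2, known as the testis form, was at 39.0 beside 52.3 for the widespread Cox6b1. The muscle and lung forms Cox8b and Cox4i2 were not among the genes of the normalized table, and Cox4i1 was at 79.6. Nuclear subunits together took 0.512% to 0.844% of the reads of a mouse and mitochondrial subunits 1.25% to 3.12%.

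The first comparison asked which subunits differed between HOCl and CTRL mice. In HOCl blood a few nuclear subunits were higher and no mitochondrial one was called: 5 of 81 nuclear genes rose (Atp5b, Atp5h, Ndufa1, Cox6b2 and Cox6a1) and 1 fell (Ndufb5), by limma on the vst values with a false discovery rate (FDR) of at most 0.05 over all genes and a fold-change of at least 1.3. Over all genes 4.79% were called higher and 0.171% lower, so the share of nuclear subunits called higher was near that of all genes. The tilt was wider than the calls, with 63 of 81 nuclear genes above 0 and a median log2 fold-change of 0.11 against -0.016 over all genes. Of the 81 nuclear genes, 30 had an unadjusted p under 0.05, beside 1885 of all 10508 genes. By edgeR on counts 5 were higher and 1 lower, with Cox5a in place of Ndufa1.

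Atp5b (chr10:127919132-127926261 in GRCm39) had vst values of 12.23, 13.01 and 13.82 (lowest, median and highest) in CTRL and of 13.16, 13.89 and 14.76 in HOCl. The ranges overlapped, yet 11 of 11 HOCl mice were above the control median and 6 were above the highest control. The log2 fold-change was 0.81 (SE 0.175, FDR = 0.00659). Atp5h, a subunit of the stalk that holds ATP synthase still, went from a median of 10.99 to 11.69 (0.67, SE 0.202, FDR = 0.0466). Atp5l, a membrane subunit of ATP synthase, had the largest fold-change of the nuclear genes, 0.91 (SE 0.278), but varied from 11.33 to 14.58 within HOCl and missed the threshold (FDR = 0.0505).

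Other ATP synthase subunits had smaller differences. Atp5a1, the alpha partner of Atp5b in the same ring, differed by 0.16 (FDR = 0.217), and Atp5c1, the rotating gamma subunit, by -0.097 (FDR = 0.56). Atp5g3, one of several genes for the membrane c-ring, differed by -0.13. The 17 genes of complex V had a median of 0.17 with 13 above 0, and 2 were called higher.

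In complex IV all 16 nuclear genes were above 0, with a median of 0.30 and 2 called higher. The 16 include genes of very low level, whose sign carries little: Cox6a2, Cox7a1 and Cox5b-ps, at median RPKM of 0.0, 0.347 and 1.82. Cox6b2 ranged from 8.51 to 10.17 in CTRL (median 8.86) and from 9.38 to 10.71 in HOCl (median 9.83). The groups overlapped at their edges, and the difference was 0.90 (SE 0.184, FDR = 0.00545). Cox6a1 differed by 0.64 (SE 0.187, FDR = 0.0423). Its neighbours in the list missed the FDR threshold: Cox6c, a small accessory subunit, at 0.65 (FDR = 0.189), Cox8a at 0.61 (FDR = 0.0567) and Cox7a2 at 0.60 (FDR = 0.145). Cox6b1, the widespread counterpart of Cox6b2, differed by 0.23 (FDR = 0.118) and Cox4i1 by 0.21 (FDR = 0.297). Cox7a2l, a factor of respiratory supercomplexes, differed by 0.041. Cox5a, which was below the fold threshold at 0.37 (FDR = 0.00942), passed when the counts were tested by edgeR (0.40).

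Complex I split in both directions. Ndufa1 had medians of 10.18 in CTRL and 11.16 in HOCl, with a difference of 0.84 (SE 0.242, FDR = 0.0394). Ndufb5, an accessory subunit of the membrane arm, was the one gene called lower: its values were 9.17, 9.44 and 9.69 in CTRL and 8.69, 9.07 and 9.38 in HOCl, overlapping ranges with a difference of -0.38 (SE 0.084, FDR = 0.00791). Ndufc2, another membrane-arm subunit, differed by -0.19 (FDR = 0.305) and Ndufb1 by 0.50 (FDR = 0.235). The 36 genes had a median of 0.074, with 25 above 0.

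Complexes II and III had no called gene. The 4 succinate dehydrogenase genes had a median of 0.018: the flavoprotein Sdha differed by 0.081, the iron-sulfur subunit Sdhb by -0.045, and the membrane anchors Sdhc and Sdhd by -0.063 and 0.13. In complex III the median was 0.28 with 7 of 8 genes above 0. Its small subunits led, with Uqcrh, the hinge protein, at 0.66 (FDR = 0.0902) and Uqcr10 at 0.53 (FDR = 0.149), whereas the Rieske iron-sulfur protein Uqcrfs1 was at -0.064 and the core protein Uqcrc1 at 0.051.

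**Figure D2:**
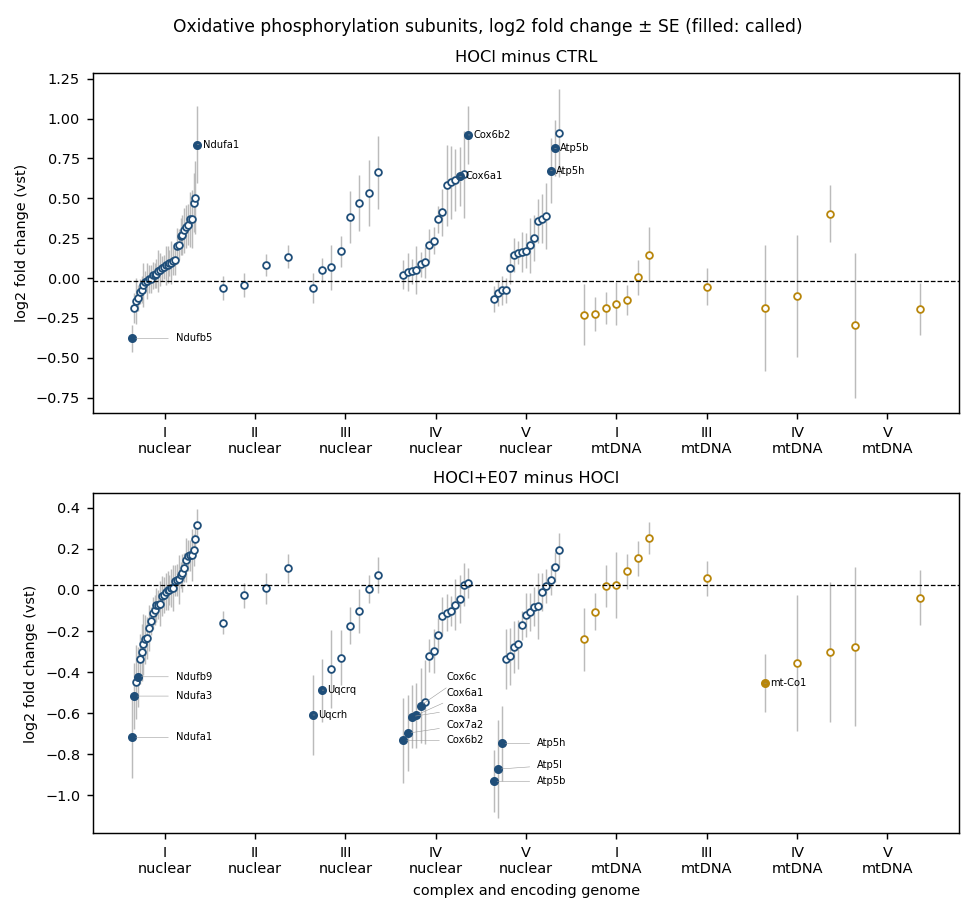
Log2 fold-change with SE for each subunit, by complex and genome, for HOCl minus CTRL and HOCl+E07 minus HOCl; filled points passed both thresholds in limma and the dashed line is the median of all genes. Nuclear complex IV points lie above the line in the first panel and mostly below it in the second, and complex II lies between -0.16 and 0.13 in both.

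Erythroid markers moved with these genes. In HOCl minus CTRL, 13 of 14 erythroid markers rose by limma, with a median of 1.29, as did 5 of 7 platelet markers (median 0.53) and 3 of 9 neutrophil markers (0.36). By edgeR 13, 2 and 3 of these were called. Of the B cell, T cell, NK cell, monocyte and eosinophil markers 0 were called by limma and 0 by edgeR, with 0, 3, 2, 2 and 0 at an unadjusted p under 0.05. The erythroid markers' summed share of reads ran from 2.79% to 8.39% in CTRL and from 6.60% to 13.7% in HOCl. Median shares in CTRL and HOCl were 0.348% and 0.412% for platelet markers and 0.562% and 0.468% for neutrophil markers. They were 0.151% and 0.103% for T cell markers and 0.0389% and 0.0194% for NK cell markers. The direction for neutrophil markers thus depended on the scale. In bulk blood, fewer cells of a type and less RNA per cell cannot be told apart. When the erythroid score of each mouse (the mean z-scored vst value of the 14 markers) was added to the limma fit, 0 of 81 nuclear subunits and 1 of 10508 genes overall were called, and 24 subunits had an unadjusted p under 0.05. The score itself differed between the groups, so this fit cannot separate score and group.

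The direction also depended on the scale, because the library size factors differed (mean 1.29 in CTRL, 0.936 in HOCl). Scaled to total counts on log2(CPM + 1), where CPM is the count scaled to the library total, all genes shifted by -0.47, and 3 nuclear subunits were called higher and 29 lower in place of 5 and 1. Relative to that shift the nuclear median was 0.17, with complex medians of 0.083 (I), 0.009 (II), 0.31 (III), 0.45 (IV) and 0.21 (V), the same order from IV down to II. Leaving out single mice gave between 2 and 22 called subunits. The value of 22 came without CTRL mouse 12, and Atp5b and Cox6b2 were called in all 22 fits that left out a mouse.

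The second comparison asked how blood of HOCl mice that received the E07 mAb differed from that of HOCl mice. With E07, 13 of 81 nuclear subunits fell and 0 rose, against 7.01% of all genes called lower and 0.876% higher. They came from complexes I (Ndufa1, Ndufa3 and Ndufb9), III (Uqcrh and Uqcrq), IV (Cox6a1, Cox6b2, Cox6c, Cox7a2 and Cox8a) and V (Atp5b, Atp5h and Atp5l), with no gene of complex II. The nuclear median was -0.10 against 0.022 over all genes, and 25 genes were above 0. An unadjusted p under 0.05 was found for 35 of the 81, beside 2996 of all 10508 genes. HOCl mice are in both of the first comparisons, so their values enter each with the opposite sign. By edgeR on counts 15 nuclear subunits were lower, the same 13 with Cox7b and Ndufa11, and 1, Ndufc2, was higher (8.13% of the genes tested by edgeR were called in either direction).

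Atp5b had the smallest FDR among the subunits in this comparison. Its values in E07 mice were 12.49, 12.85 and 13.57, against 13.16, 13.89 and 14.76 in HOCl. Of 12 E07 mice, 12 were below the HOCl median and 8 below the lowest HOCl mouse. The log2 fold-change was -0.93 (SE 0.15, FDR = 0.000179). Atp5h (10.64, 10.97 and 11.51 with E07) differed by -0.75 (SE 0.185, FDR = 0.00671) and Atp5l by -0.87 (SE 0.238, FDR = 0.0132). Atp5a1 and Atp5c1 again moved less, at -0.17 (FDR = 0.105) and 0.11 (FDR = 0.318).

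In complex IV, 5 of 16 genes fell. Cox6b2 ran from 8.18 to 10.20 with a median of 8.95 and differed by -0.73 (SE 0.206, FDR = 0.0162). Cox7a2 differed by -0.70 (FDR = 0.0107), Cox8a by -0.62 (FDR = 0.00707), Cox6a1 by -0.61 (FDR = 0.00953) and Cox6c by -0.56 (FDR = 0.038). Cox6c lay between 11.34 and 12.34 with E07 and between 11.55 and 13.82 in HOCl, and Cox7a2 between 9.64 and 10.57 and between 9.74 and 12.25, so the ranges overlapped and the E07 range was the narrower in both genes. In Cox6b2 the E07 range was the wider. Cox5a fell short of the fold threshold at -0.32 (FDR = 0.00787), and Cox7a2l was at 0.035.

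In complex I, Ndufa1 lay between 9.95 and 10.87 with E07, below the HOCl median of 11.16 in every mouse, and differed by -0.72 (SE 0.198, FDR = 0.014). Ndufa3 and Ndufb9, both accessory subunits, differed by -0.52 (FDR = 0.0293) and -0.42 (FDR = 0.0485). Ndufb5 and Ndufc2 went the other way, at 0.25 (FDR = 0.0302) and 0.32 (FDR = 0.00744), both under the fold threshold on the vst scale. Ndufs3, a core subunit near the iron-sulfur chain, was at 0.19 (FDR = 0.102). In complex III, Uqcrh differed by -0.61 (FDR = 0.0318) and Uqcrq, which binds near the ubiquinone site, by -0.49 (FDR = 0.03), whereas Uqcrfs1 and Uqcrc1 were at 0.072 and 0.006. Complex II stayed between -0.16 (Sdha, FDR = 0.0616) and 0.11 (Sdhc).

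**Figure D3:**
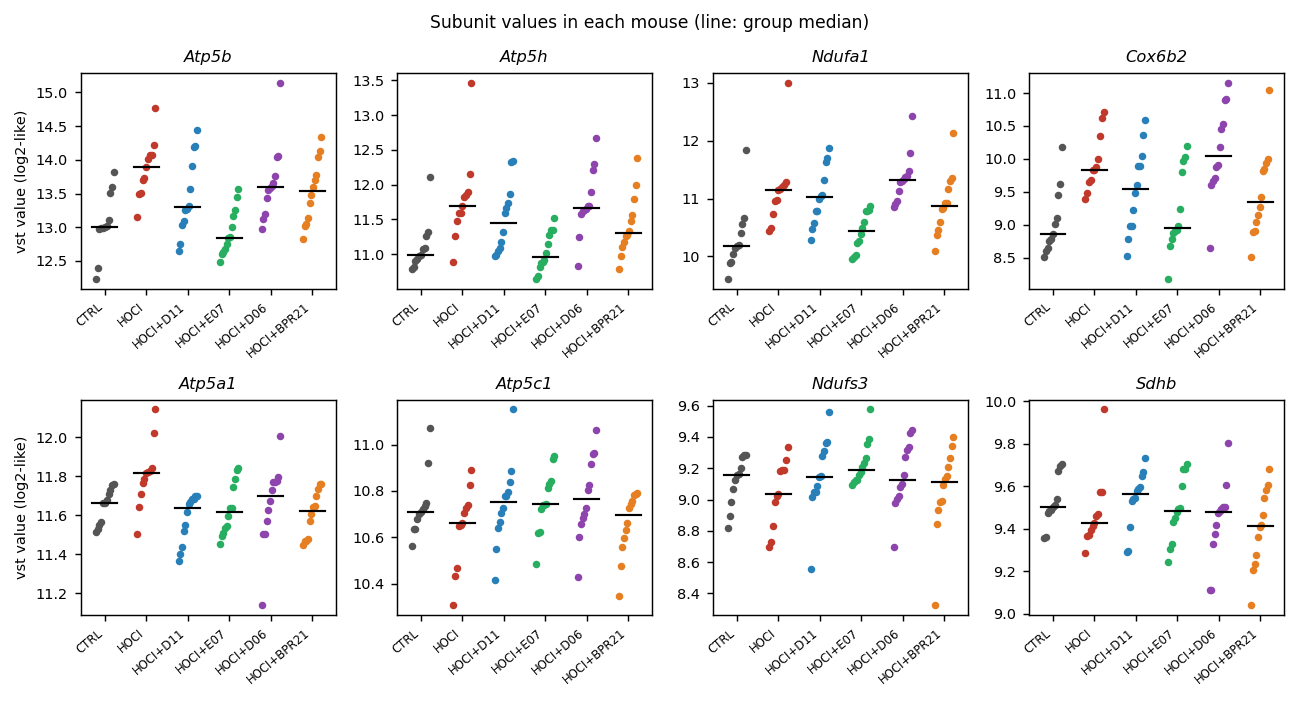
vst value per mouse (points, line at the group median) of 8 subunits in the 6 groups. Atp5b, Atp5h, Ndufa1 and Cox6b2 are higher in HOCl than in CTRL and HOCl+E07 mice with overlapping ranges, while Atp5a1, Atp5c1, Ndufs3 and Sdhb lie in narrow bands across the groups.

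The marker genes again moved with the subunits: 13 of 14 erythroid markers fell with E07 (median -1.35), as did 7 of 7 platelet markers (-0.53), 3 of 6 monocyte markers and 1 of 9 neutrophil markers, while 5 of 6 B cell markers and 2 of 4 eosinophil markers rose. Of the T and NK cell markers 0 were called by limma and 0 by edgeR, with 2 and 0 at an unadjusted p under 0.05. The erythroid share of reads was 3.94% to 7.63% with E07. Median shares in HOCl and E07 mice were 0.412% and 0.404% for platelet markers, 0.0657% and 0.0599% for monocyte markers and 0.468% and 0.518% for neutrophil markers. They were 0.100% and 0.195% for B cell markers and 0.103% and 0.154% for T cell markers. The falls in platelet and neutrophil markers thus depended on the scale. With the erythroid score in the limma fit, 0 of 81 nuclear subunits were called, 21 had an unadjusted p under 0.05, and 1 of 10508 genes was called in all. On total counts 6562 of 10505 genes were called higher and 324 lower. All genes shifted by 0.49 on this scale, and 40 of 81 nuclear subunits were called higher and 2 lower, in place of 0 and 13. Relative to that shift the complex medians were -0.013 (I), -0.006 (II), -0.28 (III), -0.43 (IV) and -0.13 (V). Leaving out single mice gave 8 to 17 called subunits, with 8 without HOCl+E07 mouse 9, and 8 genes (Atp5b, Atp5h, Atp5l, Cox6a1, Cox6b2, Cox7a2, Cox8a and Ndufa1) were called in all 23 fits.

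No subunit was called between HOCl+E07 and CTRL mice. For nuclear genes the count was 0 of 81 by limma and 0 by edgeR, with 2 (limma) and 3 (edgeR) at an unadjusted p under 0.05 and 0.00952% of all genes called by limma. Over all genes, 799 of 10508 (limma) and 965 of 15211 (edgeR) had such a p. For mitochondrial genes the count was 0 of 13 by both, with 0 at an unadjusted p under 0.05. The nuclear median was 0.041, and Atp5b differed by -0.12 (SE 0.156, FDR = 0.938).

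In the other treated groups no subunit was called against HOCl. For D11, D06 and BPR21 the count was 0 of 81 nuclear and 0 of 13 mitochondrial subunits, both by limma and by edgeR. The shares of all genes called were also small, 0.0571%, 0.133% and 0.638% by limma and 0.184%, 0.0855% and 0.467% by edgeR. At an unadjusted p under 0.05, limma had 6, 10 and 10 nuclear subunits and edgeR 6, 11 and 11. Over all genes limma had 1483, 1338 and 1474 of 10508 at this p, and edgeR 1783, 1810 and 1876 of 15211. The nuclear medians were -0.018, 0.12 and -0.08. Atp5b lay between the outer groups in each: its median was 13.30 with D11, 13.54 with BPR21 and 13.59 with D06, between 12.85 with E07 and 13.89 in HOCl. Its differences from HOCl, -0.40 (SE 0.197, FDR = 0.357), -0.33 (SE 0.177, FDR = 0.403) and -0.20 (SE 0.191, FDR = 0.707), did not pass.

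The difference between E07 and each of these treatments was then tested directly by limma. Against D11, 12 nuclear subunits were lower with E07 (4.27% of all genes), against D06 28 (8.42%) and against BPR21 5 (5.69%). The nuclear genes lower with E07 against all 3 were Cox6c, Cox7a2, Cox8a and Atp5mpl, a small membrane subunit of ATP synthase. Cox6c had a median of 11.77 with E07 and of 12.52, 12.70 and 12.42 with D11, D06 and BPR21, and the ranges overlapped in each case.

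The mitochondrial subunits followed another course. In HOCl minus CTRL 0 of 13 were called by edgeR (3.71% of the 15211 tested genes were called), 0 had an unadjusted p under 0.05, and 0 were called by limma, with 2 at an unadjusted p under 0.05. Their limma median was -0.16, with 3 of 13 above 0, in contrast to the nuclear 0.11. mt-Co1, the catalytic core of complex IV, had CPM values of 8473, 9821 and 13370 in CTRL and of 8359, 9261 and 11090 in HOCl. These overlapped almost fully, and the edgeR difference, which is relative to the other genes, was 0.35 (SE 0.19, FDR = 0.396).

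mt-Nd1, a membrane subunit of complex I where ubiquinone docks, had CPM values of 1749, 2809 and 3642 in CTRL, of 868.3, 1586 and 2199 in HOCl, and of 2149, 2784 and 3452 with E07. On this scale the HOCl range lay below that of E07 except at its upper edge, and it overlapped with CTRL. After TMM scaling, which centres the bulk of genes between libraries, the differences were -0.25 (SE 0.125, FDR = 0.35) and 0.26 (SE 0.093, FDR = 0.0684), and neither passed. mt-Nd2 and mt-Cytb, the heme-carrying core of complex III, kept the same order of medians, with mt-Cytb at 4553, 3121 and 4485 CPM in CTRL, HOCl and E07 mice. Together the mitochondrial subunits took a median of 2.28% of reads in CTRL, 1.75% in HOCl and 2.18% with E07, and 2.13%, 2.09% and 1.99% with D11, D06 and BPR21.

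With E07 1 of 13 was called against HOCl by edgeR, mt-Co1 at -0.44 (SE 0.143, FDR = 0.0428), and by limma at -0.45 (FDR = 0.0287). Over all tested genes edgeR called 8.13%, so the share of mitochondrial subunits called was near that of all genes. The mt-Co1 call was lost in 16 of the 24 fits that left out 1 mouse, and on total counts the mt-Co1 difference was 0.065. In the tests between treatments mt-Co1 was lower with E07 than with D11 (-0.49), D06 (-0.74) and BPR21 (-0.43). With D11, D06 and BPR21 the mitochondrial limma medians against HOCl were 0.23, 0.44 and 0.27, with 12, 13 and 11 of 13 above 0 in that order, and no gene passed. At an unadjusted p under 0.05, limma had 5, 7 and 6 of these 13 genes and edgeR 3, 11 and 5. The 11 with D06 fell to 6 without HOCl+D06 mouse 8, which stood apart in mt-Co2. The closest was mt-Cytb with D06, at 0.51 (SE 0.14, FDR = 0.104).

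**Figure D4:**
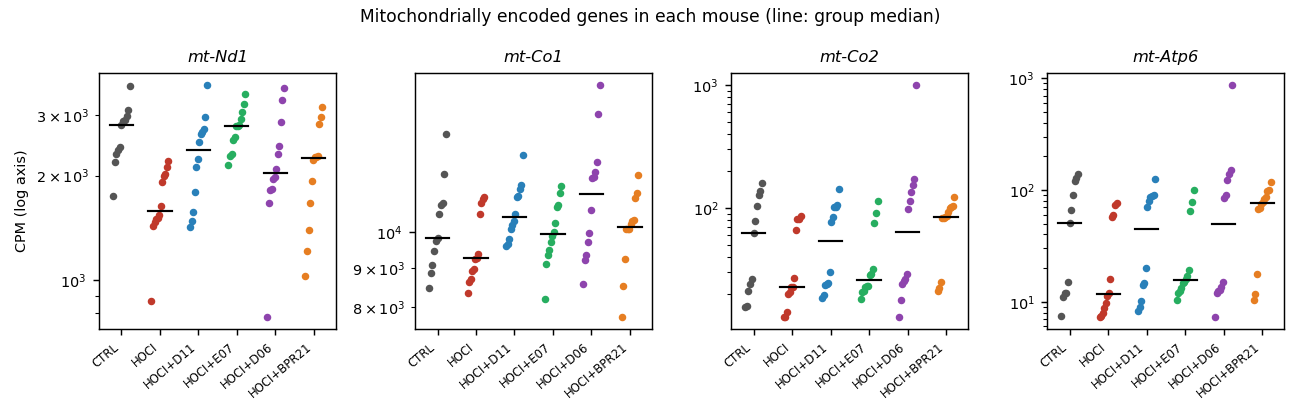
CPM per mouse on a log axis (points, line at the group median) of mt-Nd1, mt-Co1, mt-Co2 and mt-Atp6 in the 6 groups. mt-Nd1 and mt-Co1 do not fall into bands shared by all groups, while mt-Co2 and mt-Atp6 split into a lower and an upper band within every group, with 1 HOCl+D06 mouse at 1005 CPM of mt-Co2.

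Of the mitochondrial genes with an exact match along their whole length, 3 fell into bands. mt-Co2 had no mouse between 31.8 and 63.2 CPM, a gap of 1.99-fold, and mt-Atp6 and mt-Co3 had gaps of 2.51-fold and 1.93-fold. The same 37 mice were below and the same 34 above in these 3 genes, which lie side by side on chrM, with 0 mice mixed. The largest gaps of mt-Atp8 and mt-Nd4l, which have such a match too, were 1.32-fold and 1.22-fold. The upper band held 6 of 11 CTRL mice, 4 HOCl, 6 D11, 3 E07, 6 D06 and 9 BPR21 mice of 12 each, so both bands were present in all groups. HOCl+D06 mouse 8 stood apart at 1005 CPM of mt-Co2. The fold-changes of these genes had large errors: mt-Co2 differed by -0.32 (SE 0.453) in HOCl minus CTRL and by -0.42 (SE 0.409) in HOCl+E07 minus HOCl. With D06 it was 1.69 (SE 0.546, FDR = 0.16). Among annotated pseudogenes on the chr1 copy, median CPM was 24.2 for Gm28437, 24.1 for Atp6-ps and 23.3 for Gm28661. The medians of the mitochondrial genes that these copy were of similar size, 33.4 for mt-Co3, 19.3 for mt-Atp6 and 30.4 for mt-Co2. Of the other pseudogenes there, Gm10222 was at 0.949 beside 1.12 for mt-Nd4l, and Gm28438 at 12.1 beside 2.21 for mt-Nd3. Gm28439 and Gm29216, which cover parts of mt-Nd4 and mt-Co1, were at 4.82 and 27.1 beside 1340 and 10100. The part of these pseudogenes in the bands was not tested.

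Within groups, some subunits tracked the erythroid score and others did not. Taken as deviations from group means over 70 mice, with 94 relations computed, Atp5b had Pearson's r = 0.928 and Spearman's rho = 0.923 with the score (permutation p = 1e-05 for each, the smallest that 100000 permutations can give; adjusted 3.03e-05 and 3.24e-05). Without the 2 mice farthest from the median score r was 0.919, and within the 6 groups it ran from 0.876 to 0.969. mt-Co1 had r = 0.874 and rho = 0.831 (permutation p = 1e-05 for each, adjusted 3.03e-05 and 3.24e-05), 0.852 without 2 mice and 0.661 to 0.963 by group. Cox6b2 had r = 0.677.

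Other subunits of the same complexes had weak or negative relations over all groups together. For mt-Nd1 r was 0.009 (permutation p = 0.946, adjusted 0.98) and rho 0.042 (permutation p = 0.736, adjusted 0.834). By group its r differed in sign, from -0.424 in HOCl+BPR21 to 0.562 in CTRL. Ndufs3 had r = -0.391 (permutation p = 0.00188, adjusted 0.00442) but rho = -0.235 (permutation p = 0.061, adjusted 0.122), and r = -0.347 without 2 mice. An r above 0.5 was found for 31 of 81 nuclear subunits (38.3%), against 8.24% of all genes. By complex it was 9 of 36 in I, 0 of 4 in II, 5 of 8 in III, 9 of 16 in IV and 8 of 17 in V, and 1 of 13 among mitochondrial genes. The mice share library depth and size factors across all these relations.

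**Figure D5:**
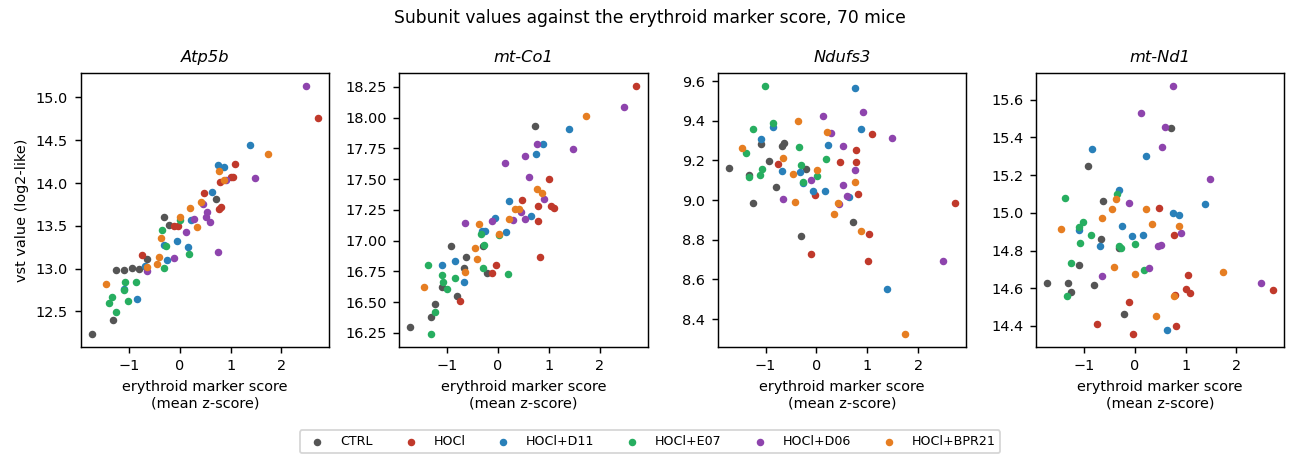
vst value of Atp5b, mt-Co1, Ndufs3 and mt-Nd1 against the erythroid score (mean z-scored vst value of 14 markers) in 70 mice, coloured by group. Atp5b and mt-Co1 rise with the score in every group. For mt-Nd1, r is 0.009 over deviations from group means, and by group it runs from -0.424 (HOCl+BPR21) to 0.562 (CTRL).

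Genes that build or express the same complexes were read from the same fits. By limma, 4.79% of all genes were called higher and 0.171% lower in HOCl minus CTRL. With E07, 0.876% were called higher and 7.01% lower. In these 2 comparisons 1885 and 2996 of the 10508 genes had an unadjusted p under 0.05 by limma. Of 43 assembly factors in the normalized table (47 listed), 0 were called in HOCl minus CTRL by limma and 0 by edgeR, with 7 at an unadjusted p under 0.05 and a median of -0.078. With E07, 1 was called by limma, Sdhaf1, an assembly factor of complex II, which rose by 0.38 (SE 0.102, FDR = 0.011), and the median was 0.068. By limma 8 of the 43 had an unadjusted p under 0.05 with E07. EdgeR called 2, beside 8.13% of all tested genes in either direction. Pet100, which helps to assemble complex IV, had the widest values, 0.54 (FDR = 0.202) and -0.55 (FDR = 0.0554), and was called with E07 by edgeR.

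Of 26 genes of mitochondrial transcription, replication and RNA handling (27 listed), 0 were called in HOCl minus CTRL by limma and 0 by edgeR, with 6 at an unadjusted p under 0.05 and a median of -0.13. With E07 limma called 0 and edgeR 4. Of all 15211 genes tested by edgeR, 344 were called higher and 892 lower, 8.13% in either direction. By limma 8 of the 26 had an unadjusted p under 0.05, with a median of 0.15. The 4 were Polg2, an accessory subunit of the mitochondrial DNA polymerase (0.35 on the vst scale, FDR = 0.00208), Fastk (0.31, FDR = 0.00677), Mterf3 (0.28, FDR = 0.0189) and the single-strand DNA binding protein Ssbp1 (0.25, FDR = 0.0321), which were under the fold threshold in limma. Tfam, which packages mitochondrial DNA and starts its transcription, was at -0.23 and 0.20. Of 7 transcriptional regulators of respiration genes (9 listed), limma and edgeR called 0 in both comparisons, with 0 and 1 at an unadjusted p under 0.05 and medians of -0.024 and 0.035. Cyc1, Cycs and Ndufab1, carriers and subunits that the symbols miss, had medians of -0.078 and 0.063, with 0 called by limma and by edgeR. Cyc1 was at 0.24 with E07 (FDR = 0.0242), under the fold threshold.

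The subunits share short transcripts: their median length was 1014 bases against 3117 bases over the genes of the table. The 13 genes called with E07 had a median of 600 bases and the 68 others 1090. Across the 81 genes Spearman's rho of length with fold-change was -0.202 in HOCl minus CTRL and 0.189 in HOCl+E07 minus HOCl, against 0.012 and -0.107 across all genes, with genes not being independent replicates.

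Promoters of 67 of the 81 nuclear genes were matched in RefSeq (GRCm38.p6, 250 bases upstream of the start, both strands searched). The core GCGCANGC of NRF1, a factor known to activate respiration genes, was in 18 of them (26.87%) and in 9.38% of the promoters of all 27025 genes, and the core CCGGAAG of GABPA in 12 (17.91%) against 7.83%. AGATAA, the only form of the erythroid GATA motif searched, was in 6 (8.96%) against 11.43%, and AAGATGG of YY1 in 1 (1.49%) against 5.18%. Of the 13 genes called with E07, 10 were matched. Atp5h, Atp5l and Cox6a1 held both NRF1 and GABPA cores, Uqcrh a GABPA core alone, and none of the 10 held AGATAA in this window. A match is a description of letters, not a site. The 3 promoters below show a gene with several cores, a gene with 1 of each and the called gene with the smallest FDR, which had none, with matches on either strand in capitals.
Cox6a1, chr5:115348959-115349208 (minus strand): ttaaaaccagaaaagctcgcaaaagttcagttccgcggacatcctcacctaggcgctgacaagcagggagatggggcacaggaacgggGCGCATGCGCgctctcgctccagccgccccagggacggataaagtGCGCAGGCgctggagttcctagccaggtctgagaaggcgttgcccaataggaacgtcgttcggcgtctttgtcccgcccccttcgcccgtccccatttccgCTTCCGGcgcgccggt
Atp5h, chr11:115419920-115420169 (minus strand): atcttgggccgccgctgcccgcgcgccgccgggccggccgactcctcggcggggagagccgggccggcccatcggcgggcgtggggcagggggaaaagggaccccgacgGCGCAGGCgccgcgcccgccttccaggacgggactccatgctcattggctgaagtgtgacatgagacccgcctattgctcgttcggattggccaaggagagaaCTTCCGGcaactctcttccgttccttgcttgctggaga
Atp5b, chr10:128083057-128083306 (plus strand): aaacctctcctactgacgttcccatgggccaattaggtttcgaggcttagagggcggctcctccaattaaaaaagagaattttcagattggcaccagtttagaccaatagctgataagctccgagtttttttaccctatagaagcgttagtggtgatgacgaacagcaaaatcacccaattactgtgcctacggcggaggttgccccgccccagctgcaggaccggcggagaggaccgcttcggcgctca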

How the data were processed

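RNA was sequenced from whole blood of 71 mice. The authors trimmed reads with cutadapt, aligned them to mm39 (GRCm39) with STAR and counted them per gene with featureCounts; the annotation release is not given in the sources used here. The deposited counts are raw read counts per gene. The deposited vst values are on a log2-like scale, made by the authors from the counts with DESeq2 for 10508 genes of 70 mice.

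Groups came from sample titles. Each comparison was fitted on its own 2 groups: limma 3.58.1 on the vst values (the study's method) for nuclear subunits and edgeR 4.0.16 quasi-likelihood with TMM on counts (genes kept with 10 counts or more in 11 mice or more, 15211 genes) for mitochondrial ones, in R 4.3.3. Values past FDR 0.05 (Benjamini-Hochberg over all genes) and a fold-change of 1.3 were called. Each sample was 1 mouse. Levels per length used the summed exons of GENCODE genes. Nuclear copies were found with blastn 2.17.0. Both fits were tested on simulated data. DESeq2 1.42.0 and the settings named in the closing section were alternatives. Tests between treatments were added after seeing the data.

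The members, gene lists and named genes were chosen with earlier results of these data known. Named were the mitochondrial and Sdh genes, tissue forms of complex IV, called genes, and the 2 highest and 2 lowest nuclear genes of each complex in the first 2 comparisons.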

Additional observations from a re-analysis of the deposited data

Results flagged for a closer look

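E07 and the other treatments differed from each other in the subunits by a direct test of the difference (limma on vst values, FDR at most 0.05 and fold-change at least 1.3; mice of the compared groups only). Lower with E07 than with D11 were 12 nuclear subunits and 1 mitochondrial one, than with D06 28 and 6, and than with BPR21 5 and 5. Over all genes 4.27%, 8.42% and 5.69% were lower in these tests, so the nuclear count against BPR21 was near the share of all genes.

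The 4 nuclear genes lower with E07 in each of the 3 tests had these log2 differences from D11, D06 and BPR21, in that order. Cox6c, a small subunit of complex IV, differed by -0.683, -0.931 and -0.659. Cox7a2 differed by -0.632, -1.017 and -0.529, and Cox8a by -0.518, -0.706 and -0.489. Atp5mpl of ATP synthase differed by -0.498, -0.704 and -0.506.

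Among mitochondrial genes, mt-Co1 was lower with E07 than with D11 (-0.491), D06 (-0.744) and BPR21 (-0.428). Against D06 the others were mt-Co2 (-1.285), mt-Co3 (-1.205), mt-Cytb (-0.447), mt-Nd4 (-0.456) and mt-Nd6 (-0.506). Against BPR21 they were mt-Atp6 (-1.326), mt-Co2 (-1.161), mt-Co3 (-1.053) and mt-Atp8 (-0.478). mt-Co2, mt-Co3, mt-Atp6 and mt-Atp8 are covered by the chr1 copy, and 3 E07, 6 D06 and 9 BPR21 mice were in the upper band of the first 3. The erythroid share of reads had medians of 5.49% with E07, 7.01% with D11, 7.55% with D06 and 7.23% with BPR21, and its part in these differences was not tested.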

How the results depend on the processing

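Called nuclear subunits numbered 6 (HOCl minus CTRL) and 13 (HOCl+E07 minus HOCl) in the reported fits. With total-count scaling they were 32 and 42, with the erythroid score as covariate 0 and 0, and with limma's trend and robust options 3 in the first comparison. Over all genes, total-count scaling called 5461 and 6886 of 10505. The score as covariate called 1 and 1 of 10508 genes, and the trend and robust options 460 in the first comparison. With the score, 1, 2 and 2 of 81 were called for D11, D06 and BPR21 against HOCl, in place of 0, beside 11, 51 and 239 of 10508 genes. Mitochondrial calls on total counts were 5 of 13 in HOCl minus CTRL and 4 of 13 in HOCl+E07 minus HOCl, in place of 0 and 1. Over all genes 5159 and 6383 of 15211 were called in these fits. The single mitochondrial call with E07 gave 0 without a count filter, with all 6 groups in one fit and with the score. These fits called 2388 of 26248, 918 of 15211 and 2 of 15211 genes in all. For D06 mitochondrial calls were 2 with DESeq2, 4 with all 6 groups in one fit and 2 with the score, in place of 0. Over all genes 178 of 9903, 257 of 15211 and 223 of 15211 were called there. For BPR21 1 was called with the score, in place of 0, beside 395 of 15211 genes. Causes were not tested.

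With the mouse number as replicate block, nuclear calls were 0 and 8 and mitochondrial calls 0 and 0. Over all genes, limma called 85 and 799 of 10508 with this block and edgeR 362 and 1145 of 15211. Same-numbered mice deviated together weakly at most (mean r of 0.01 to 0.146 by comparison, lowest r negative in each). The largest mean, in HOCl+E07 minus CTRL, stood beside -0.01 for mice of other numbers, and 4 of 11 mice matched best with their own number. A weak correlation cannot decide whether the numbers stand for a shared step. The block turned mt-Atp8 (0.031) and mt-Nd3 (0.219) with E07.

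Without single mice, nuclear calls in HOCl minus CTRL ranged from 2 to 22. They were 22 without CTRL mouse 12, 2 without HOCl mouse 3 or CTRL mouse 2, 7, 9 or 11, and 3 without HOCl mouse 4, 6, 9 or 10 or CTRL mouse 1, 6, 8 or 10. With E07 they ranged from 8 (without E07 mouse 9) to 17, and the mitochondrial call from 0 to 1, with 0 without HOCl mouse 3, 4, 5, 6, 7, 9 or 10 or E07 mouse 1, 2, 4, 5, 7, 8, 9, 10 or 11.

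Signs turned as follows. With the score, HOCl minus CTRL became -0.252 (Atp5h), -0.218 (Cox6a1), -0.224 (Ndufa1), -0.463 (mt-Co1), -0.143 (mt-Nd4) and -1.276 (mt-Nd6). With the score, HOCl+E07 minus HOCl became 0.127 (Atp5h), 0.282 (Atp5l), 0.143 (Cox6a1), 0.229 (Cox6c), 0.168 (Cox7a2), 0.089 (Cox8a), 0.14 (Ndufa1), 0.154 (Ndufa3), 0.228 (Ndufb9), 0.321 (Uqcrh), 0.24 (Uqcrq), 0.422 (Cox7b), 0.063 (Ndufa11), 0.122 (mt-Co1), 0.567 (mt-Co2), 0.626 (mt-Atp8), 0.575 (mt-Atp6), 0.477 (mt-Co3), 0.523 (mt-Nd3) and 0.796 (mt-Nd6). On total counts, HOCl minus CTRL became -0.076 (Cox5a), -0.1 (mt-Co1), -0.394 (mt-Nd4) and -0.246 (mt-Nd6), and HOCl+E07 minus HOCl 0.0 (Ndufb9), 0.1 (Ndufa11), 0.065 (mt-Co1), 0.089 (mt-Co2), 0.391 (mt-Atp8), 0.1 (mt-Atp6), 0.031 (mt-Co3), 0.368 (mt-Nd3) and 0.309 (mt-Nd4). On vst values mt-Nd3 with E07 was 0.023. Precision of mt-Atp8, mt-Nd3, mt-Nd4l and mt-Nd6 is limited by depth, with lowest counts of 2, 3, 1 and 2 in a mouse.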
